A study of Mus musculus with 3 samples.

Results

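Mast cells given omega-3 fatty acid epoxides were set against mast cells given GW9662, both after 12 h. The comparison used the 2 arrays of treated cells among the 3 arrays of the series, taken by their labels, and the vehicle array (DMSO) is given beside them as a level only. All 3 groups were cultured mast cells raised from bone marrow (BMMCs) from male Pafah2-deficient mice of 12 weeks on a C57BL/6 background. The vehicle cells also lacked Pafah2, a phospholipase A2 that frees oxidised fatty acids from phospholipids, and no wild-type cells are among the samples. One treated group had received 17,18-EpETE and 19,20-EpDPE mixed 2 to 3 at 300 nM, and the other 0.5 µM GW9662, so the agents were compared at different doses. The labels do not say how the gene was disrupted, or whether cells of several mice were pooled. From each culture 200 ng of total RNA was labelled with Cy3. There was 1 array per group, so no difference between the treatments could be tested, and no ratio below has an error over cultures.

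The epoxides are made by cytochrome P450 enzymes from the omega-3 fatty acids EPA and DHA. GW9662 is a synthetic compound that binds covalently to PPAR gamma, a nuclear receptor for fatty acids, and blocks its activation by ligands. PPARs pair with RXR on DNA and are known for driving genes of fatty acid uptake, storage and oxidation, and PPAR alpha is the receptor best known for inducing the Cyp4a fatty acid hydroxylases and Cpt1a. In mast cells the IgE receptor signals through Src family kinases to release granules and cytokines. The comparison bears on whether cells given the epoxides and cells given a PPAR gamma blocker hold the same transcripts.

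Every direction below depends on which array held which cells. The deposited value table gives for each treated sample the values of the other treated sample's scanner file, matched within a tolerance of 0.001, while the vehicle column matches its own file. Each sample's own scanner file is used throughout, and a positive ratio means a higher signal on the array labelled omega-3 epoxides. If the column labels of the value table hold, every sign reverses and each size stays.

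A level is the log2 signal of a gene after its array was scaled to its 75th percentile, and a ratio is the epoxide level minus the GW9662 level. Of 31089 genes, 16049 were well above background on both treated arrays and count as measured. At 2-fold or more, 33 genes were higher with epoxides, 0.206% of those measured, and 154 were lower, 0.96%, which makes 187 in all (1.17%). Most of these differences came from one stretch of the array. The rows after row 180 and up to row 400, of 532, are called the middle rows here. They read 6846 of the measured genes, of which 24 were higher (0.351%) and 138 lower (2.02%), 162 in all (2.37%). The outer rows read 9000 genes, of which 9 were higher (0.1%) and 16 lower (0.178%), 25 in all (0.278%). A further 203 genes had copies of their probe in both stretches, and 0 of them reached 2-fold. Genes read inside the middle rows are marked as such below.

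In the Cyp4 family, whose members hydroxylate the omega end of fatty acids, the measured Cyp4a genes stood lower with epoxides than with GW9662. Of 19 listed genes 10 were measured, and all 10 had a negative ratio, against 61.1% of all measured genes. The median ratio of the 10 was -0.33, against -0.06 over all measured genes. With a smooth trend in probe GC content and signal removed, 4 of the 10 were positive, none of them a Cyp4a gene. As scaled, 4 of the 10 were at least 2-fold lower. Of all measured genes 0.96% were, and of those read inside the middle rows 2.02%. The 4 genes at 2-fold were all of the Cyp4a cluster on chromosome 4, and 3 of them were read inside the middle rows. Their probes are shown because paralogs this close can share signal. Coordinates are those of the array files (build mm9, plus strand, chr4:115198463-115198522 for the first and chr4:115243923-115243982 for the second), and capitals mark the longest run that both probes have in common, 27 bases.

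Cyp4a10: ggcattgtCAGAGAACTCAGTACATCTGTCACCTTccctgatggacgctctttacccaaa
Cyp4a31: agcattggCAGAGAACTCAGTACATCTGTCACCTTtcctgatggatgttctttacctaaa

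With that run the signals of Cyp4a10 and Cyp4a31 may hold RNA of each other. The probes of Cyp4a12a (chr4:115005258-115005317) and Cyp4a12b (chr4:115111580-115111639), of which the first 30 bases are shown, have no common run longer than 6 bases.

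Cyp4a12a: atgcatatctgaaagagccaattttcaacc
Cyp4a12b: cctttcagcttacatttaagagtcttgcca

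Cyp4a12a, a hydroxylase of arachidonic acid, was at -0.16 with vehicle, -0.18 with epoxides and 1.37 with GW9662. Cyp4a12b, its close paralog, was at 0.11, 0.12 and 1.51. For both genes the vehicle and epoxide arrays lay together and the GW9662 array stood above them. The ratios were -1.55 (2.94-fold lower with epoxides) and -1.39 (2.62-fold), each from 1 spot inside the middle rows. Among genes with a plain symbol, which leaves out Gm, LOC and Rik names, accessions and probe names, they were the only ones read inside the middle rows that reached 2-fold and whose brighter array was no dimmer than 0.13, the median signal.

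Cyp4a10 was at -3.09 with vehicle, -3.52 with epoxides and -1.88 with GW9662, a ratio of -1.63 from 1 spot outside those rows. Its other detected probe, inside the middle rows, gave only -0.23. Cyp4a31 was at -2.52, -2.90 and -1.08, a ratio of -1.82 read inside the middle rows, and its other detected probe gave -0.60, also inside. The 2 probes of each gene thus shared a sign but not a size. The remaining measured members were far from 2-fold. Cyp4f18 was at -0.47 and Cyp4f13 at -0.12. Inside the middle rows, Cyp4f17 was at -0.19, Cyp4v3 at -0.15, Cyp4b1 at -0.11 and Cyp4f16 at -0.01. Cyp4a14, another gene well known to respond to PPAR alpha, was not measured. Cyp4f39 was above background with GW9662 only, at least 2.68-fold higher there and inside the middle rows.

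**Figure D1:**
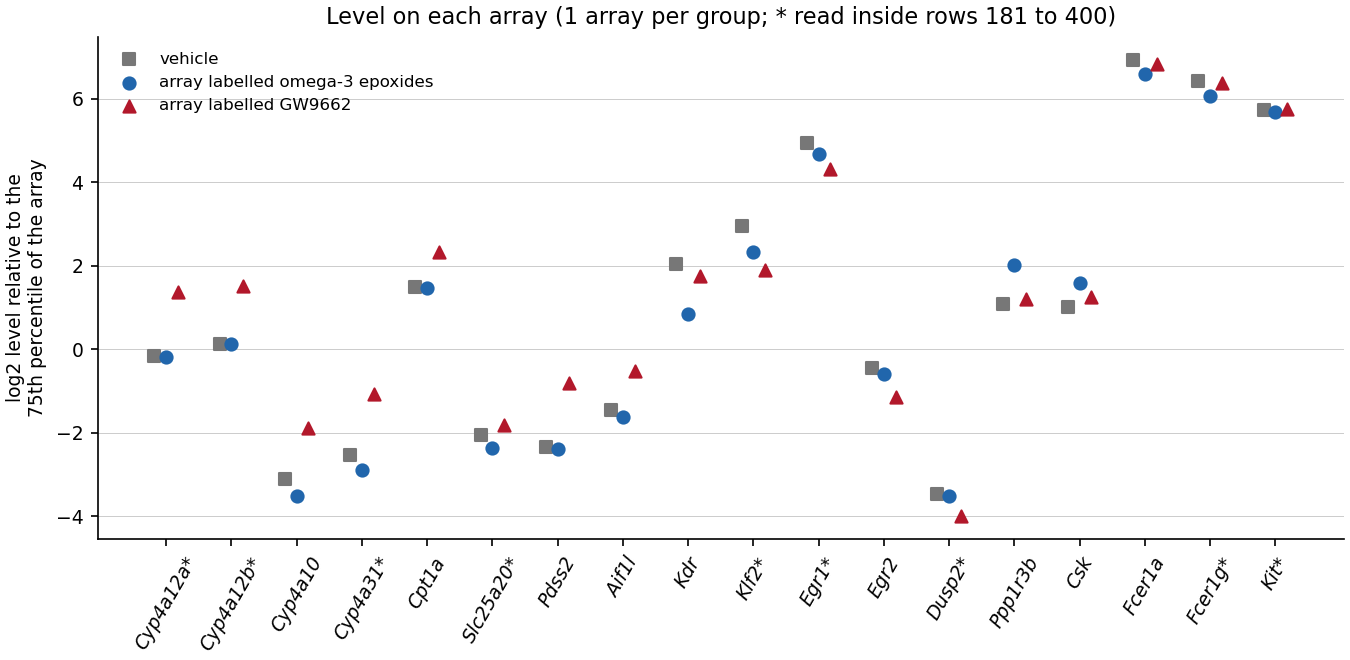
Level of 18 genes (y axis, log2, arrays scaled to their 75th percentile) on the vehicle array, the array labelled omega-3 epoxides and the array labelled GW9662, 1 array per group, with an asterisk for genes read inside the middle rows. The Cyp4a genes and Cpt1a are highest on the GW9662 array, for example Cyp4a12a at 1.37 against -0.18 and -0.16, whereas Klf2 and Egr2 are lowest on it.

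Fatty acid oxidation genes differed little as a group, with Cpt1a as the exception. Of 35 genes 32 were measured, 10 with a positive and 22 with a negative ratio, a median of -0.07, and 0 reached 2-fold. Cpt1a, which carries out the rate-limiting transfer of long-chain fatty acids to carnitine for entry into mitochondria, was spotted 10 times on each array by the probe whose first 30 bases follow (mm9, chr19:3385374-3385433, plus strand).

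Cpt1a: tcttaggactacttgctaacctctgttact

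Its level was 1.49 with vehicle, 1.47 with epoxides and 2.32 with GW9662. The ratio was -0.86 ± 0.035 (SD over 10 spot positions, which covers spot error only), 1.81-fold lower with epoxides, and single positions ran from -0.90 to -0.79. Again vehicle and epoxides lay together and GW9662 above. The 4 positions inside the middle rows averaged -0.85 and the 6 outside -0.87. A separate probe of Cpt1a, dimmer and inside the middle rows, gave -0.99. Among the 220 probes with 10 copies that were detected on both arrays, Cpt1a had the lowest ratio. The median over the 220 was 0.00, 105 were positive and 115 negative, 3 reached 1.5-fold, and the median SD among spot positions was 0.0354.

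Other genes of the pathway were lower by less. The carnitine carrier Slc25a20 was at -2.38 with epoxides and -1.80 with GW9662, a ratio of -0.57 read inside the middle rows. Hadha, a subunit of the mitochondrial trifunctional protein, had a ratio of -0.53, also inside. Among probes with 10 copies, Eci3 had -0.33 ± 0.028 (SD, 10 positions) and the thiolase Acaa2 -0.27 ± 0.021 (SD, 10 positions). Those 2 were picked after their values were seen.

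PPAR gamma itself was expressed near the floor of the assay. Pparg was at -3.75 with vehicle, -4.39 with epoxides and -3.94 with GW9662, where detection began at -5.57 and -5.03 on the treated arrays. Its ratio was -0.45 ± 0.18 (SD over 8 spot positions), from -0.75 to -0.17. Among the 19 measured genes of 20 for PPARs, RXRs and their coregulators, 5 were positive and 14 negative, with a median of -0.09 and 0 at 2-fold. Rxra had a ratio of -0.57 at levels of -4.91 and -4.34, Ppara -0.40 inside the middle rows, and Rxrg -0.34. Ppard was at -0.14 inside the middle rows and Rxrb at -0.17. Coactivator Ncoa2 had the highest ratio, 0.24, inside the middle rows.

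The classical PPAR gamma targets and lipid storage genes gave 16 measured of 30, 5 positive and 11 negative, a median of -0.08 and 0 at 2-fold. The lowest were the glycerol channel Aqp7 at -0.56, the lipid droplet coat gene Plin4 at -0.54 inside the middle rows and the mitochondrial carrier Ucp2 at -0.36. Aqp7 and Plin4 were dim, at -4.25 and -5.00 with epoxides, whereas Ucp2 was at 1.75 with epoxides and 2.11 with GW9662. Plin2, which coats lipid droplets in many cells, was at 1.03 and 1.09, a ratio of -0.06. Angptl4, a secreted lipase inhibitor, was at 1.39 and 1.60, a ratio of -0.21 inside the middle rows. Fabp5, a fatty acid carrier, had a ratio of 0.16 and Pnpla2, the triglyceride lipase, 0.18. Thus the targets had no common direction of any size.

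Immediate early genes, which cells transcribe within minutes of a signal, leaned the other way. Of 34 listed, 26 were measured, 20 positive and 6 negative, whereas 38.9% of all measured genes were positive. The median ratio was 0.13, and 0 genes reached 2-fold. Outside the middle rows alone, 13 of 17 were positive with a median of 0.12. Egr2, a zinc finger transcription factor, was at -0.46 with vehicle, -0.59 with epoxides and -1.14 with GW9662, a ratio of 0.55 (1.46-fold higher with epoxides). Klf2, which restrains inflammatory genes, was at 2.95, 2.33 and 1.89, a ratio of 0.44 inside the middle rows. Egr1 was bright at 4.93, 4.66 and 4.31, a ratio of 0.35 inside the middle rows. In these 3 genes GW9662 was the lowest array and vehicle the highest. Dusp2, a phosphatase of MAP kinases, had a ratio of 0.50 inside the middle rows and Atf3 0.39 outside, both at levels of -3.50 or below.

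Most mast cell transcripts stood at high level on both arrays. Kit, the stem cell factor receptor, was at 5.68 with epoxides and 5.75 with GW9662. The IgE receptor chains were at 6.59 and 6.83 for Fcer1a, 3.75 and 3.70 for Ms4a2, and 6.05 and 6.37 for Fcer1g. Their ratios were -0.23, 0.05 and -0.32, and that of Kit was -0.08, with Ms4a2, Fcer1g and Kit inside the middle rows. Of 32 mast cell identity genes 29 were measured, 8 positive and 21 negative, with a median of -0.08 and a range of -0.37 to 0.31. Of the 29, 26 were no dimmer than the median signal of measured genes. The highest ratio was that of Hdc, which was dim and inside the middle rows. It was at -4.19 with epoxides and -4.51 with GW9662, where detection began at -5.57 and -5.03. Granule proteases and cathepsins gave 20 of 24 measured, 6 positive and 14 negative, and a median of -0.13. The carboxypeptidase Cpa3 had a ratio of -0.26, the chymase Cma1 -0.28, Cma2 -0.37, granzyme gene Gzmb -0.24 and the tryptase Tpsb2 -0.08.

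Genes of IgE receptor signalling gave 41 measured of 45, 13 positive and 28 negative, with a median of -0.04 and a range of -0.51 to 0.37. With the trend removed 20 were positive and 21 negative, where 8249 of all 16049 measured genes were positive. Rab27a, a GTPase of granule secretion, was at -2.30 and -1.79, a ratio of -0.51. The adaptor Lcp2 had -0.46 and the SNARE Snap23 -0.40, both inside the middle rows, but a second probe of Snap23 outside them gave -0.04.

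The inhibitors of that pathway showed no common direction. Among 39 genes that restrain IgE receptors or Src kinases, 34 were measured, 16 positive and 18 negative, with a median of -0.02. Srcin1, which holds Src in check through Csk, was not well above background on either treated array, so it has no fold here. One of its 2 probes, inside the middle rows, was well above background with vehicle, at -2.26. Csk, the kinase that switches Src family kinases off, was at 1.60 with epoxides and 1.24 with GW9662, a ratio of 0.36. The lowest members were Spry2 at -0.48, Milr1 at -0.39 and Siglece at -0.33, all inside the middle rows. Milr1, an inhibitory receptor of mast cells, has 2 more probes outside the middle rows, at 0.12 and 0.06. Pafah2 itself was at -0.08 and 0.07 inside the middle rows, and it was 0.03 with vehicle.

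Cytokine and chemokine genes gave 22 measured of 36, 11 positive and 11 negative, and a median of 0.01. The even split depended on the scaling, with 16 positive and 6 negative (median 0.09) after the trend was removed, 15 and 7 under quantile normalization and 16 and 6 under cyclic loess. Of all measured genes, 8249 of 16049 were positive with the trend removed. Tnf, read by 10 copies, was at -0.88 with epoxides and -1.19 with GW9662, a ratio of 0.31 ± 0.034 (SD, 10 positions). Il1b, read by 9, was at -2.25 and -2.58, a ratio of 0.32 ± 0.069 (SD). Ccl3, a chemokine made by activated mast cells, had 0.35 inside the middle rows, and Tgfb1 had -0.31 ± 0.034 (SD, 10 positions). These 4 were named because they lay farthest from 0 in the list, so their directions do not describe the list. Subunits and feedback genes of NF-kappa B gave 15 measured of 20, 4 positive and 11 negative, with a median of -0.12.

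Genes of eicosanoid synthesis and epoxide metabolism had negative ratios in 17 of 21 measured (32 listed), where 61.1% of all measured genes were negative. With the trend removed 16 of the 21 were negative, where 7800 of all 16049 measured genes were. The median was -0.13, against -0.06 over all measured genes. Ggt5, which converts leukotrienes, had a ratio of -0.36, the epoxide hydrolase Ephx3 -0.30, and Alox5ap, the helper of 5-lipoxygenase, -0.30 inside the middle rows. Cyp1b1, a P450, had the highest ratio, 0.30. Ephx3 and Ggt5 were dim, at -3.15 and -3.88 with epoxides.

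S phase and DNA replication genes were slightly higher with epoxides, 25 of 36 measured (37 listed) with a median of 0.07. Mcm2, a subunit of the replicative helicase, was at 1.86 and 1.61, a ratio of 0.24, and Tk1, thymidine kinase, had 0.25. Dut, the dUTPase, had 0.44 inside the middle rows from a probe of 23.3% G and C. A second probe there, of 35%, gave 0.33. Inside the middle rows, all measured genes with under 30% had a median ratio of 0.29. G2 and M phase genes were even, 17 positive and 16 negative of 33 measured, with a median of 0.01. Cdk1 had the highest ratio of that list, 0.47 inside the middle rows, but its probes disagreed, at 0.21 and -0.33 for the other 2. The probes at 0.47 and 0.21 held 18.3% G and C each, and the probe at -0.33 held 45%.

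**Figure D2:**
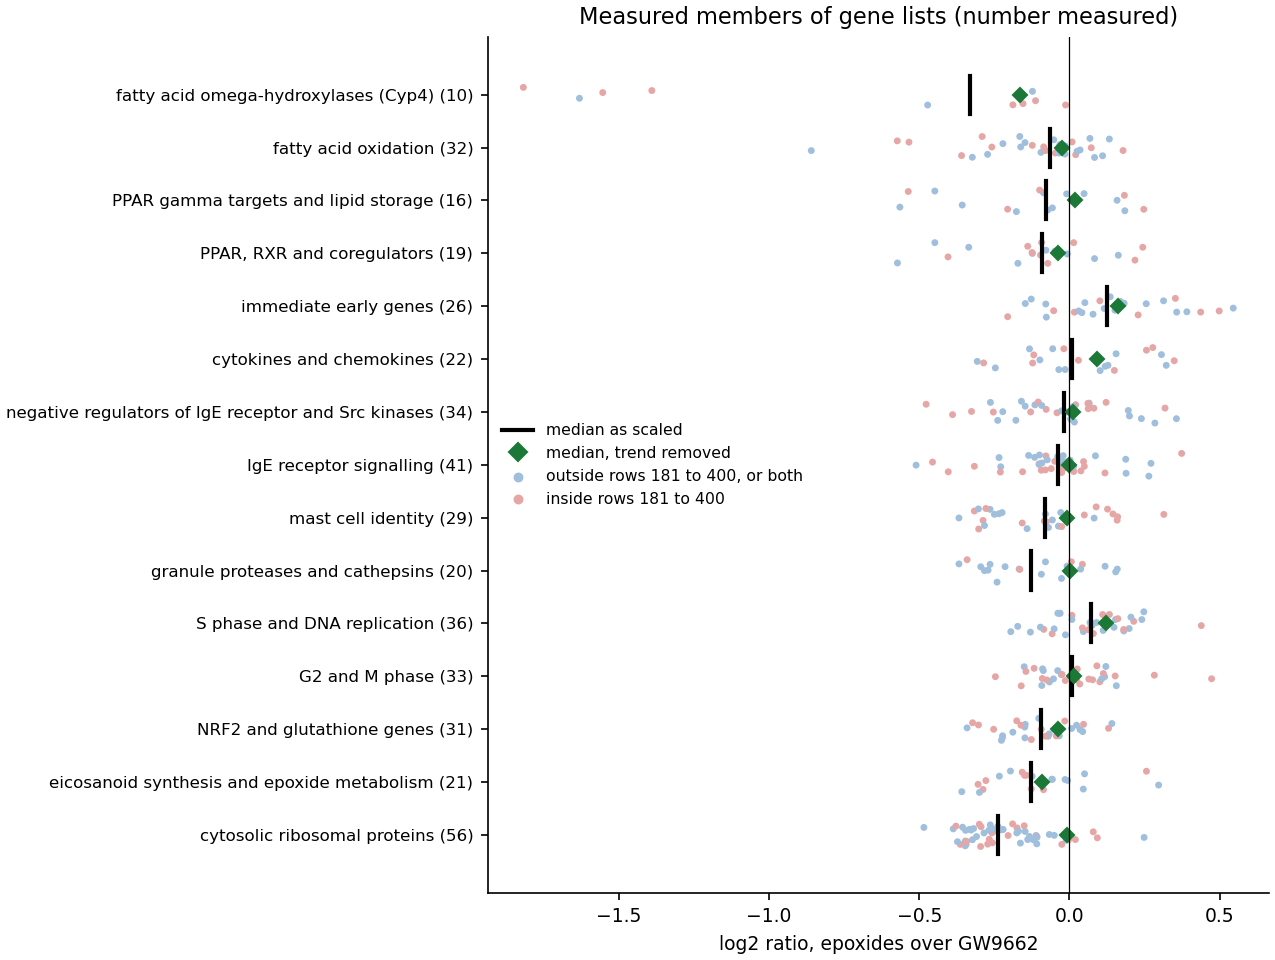
Log2 ratio of epoxides over GW9662 (x axis) for each measured member of 15 gene lists, as points coloured by whether the gene was read inside the middle rows. Black bars are the medians as scaled and green diamonds the medians after removal of the smooth trend: the ribosomal median moves from -0.24 to -0.01, and that of the immediate early genes from 0.13 to 0.16.

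The 56 measured cytosolic ribosomal protein genes were lower with epoxides in 52 cases, with a median of -0.24. Rps14 was at 6.90 and 7.39, a ratio of -0.48, and Rps16 had -0.39, with -0.32 and -0.46 from its other 2 probes. Their probes held 45% G and C at the median, against 41.7% over all measured genes, and the ratio varied with that share and with brightness. After a smooth trend with GC content and with signal was taken out, 25 of the 56 were positive and the median was -0.01. Of all measured genes, 8249 of 16049 were then positive. Under quantile normalization the median was -0.03 with 23 positive, and under cyclic loess, another scaling of the arrays to each other, -0.10 with 14 positive and 42 negative.

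The ratio declined with the GC content of the 60-base probe. Outside the middle rows, the 97 genes with under 30% GC had a median of 0.28, the 3220 genes from 35% to under 40% had 0.07, the 2343 genes from 45% to under 50% had -0.13, and the 821 genes at 55% or more had -0.26. Inside the rows the same bins gave 0.29, 0.05, -0.15 and -0.27, so the decline was alike in both stretches. Across the genes outside the middle rows it amounted to -0.18 for each 10 points of GC, with r = -0.52 as a description, since genes are not independent replicates. Of 10 signal bins outside the middle rows, the dimmest and the brightest were also low, with medians of -0.27 and -0.15.

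The decline was present between probes of the same gene. Among 1322 genes with 2 or more detected probes outside the middle rows, the probe richer in GC had the lower ratio in 71.0%. Pairs of equal GC were kept in this count, with the probe taken as richer set by the order of probe names. Where the probes differed by 15 points of GC or more it was 141 of 157 genes (89.8%), with a median difference of -0.31. Where they differed by 5 points or less, pairs of equal GC included, it was 379 of 644 (58.9%), with a median of -0.03. Nfkb1, a subunit of NF-kappa B, serves as an example, and the first 30 bases of both its detected probes are shown with G and C in capitals (mm9, minus strand, chr3:135247621-135247680 and chr3:135254550-135254609).

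Nfkb1, probe of 21.7% GC: aaatGCtatttaCttttttattttaCtttt
Nfkb1, probe of 55% GC: tCtatGaCCtGGaCGaCtCttGGGaGaaGG

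The first probe was at 0.85 with epoxides and 0.19 with GW9662, a ratio of 0.66, and the second at -1.02 and -0.99, a ratio of -0.03. The same gene thus appeared 1.58-fold higher by its AT-rich probe and level by the other. With the trend removed, the first probe gave 0.21.

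**Figure D3:**
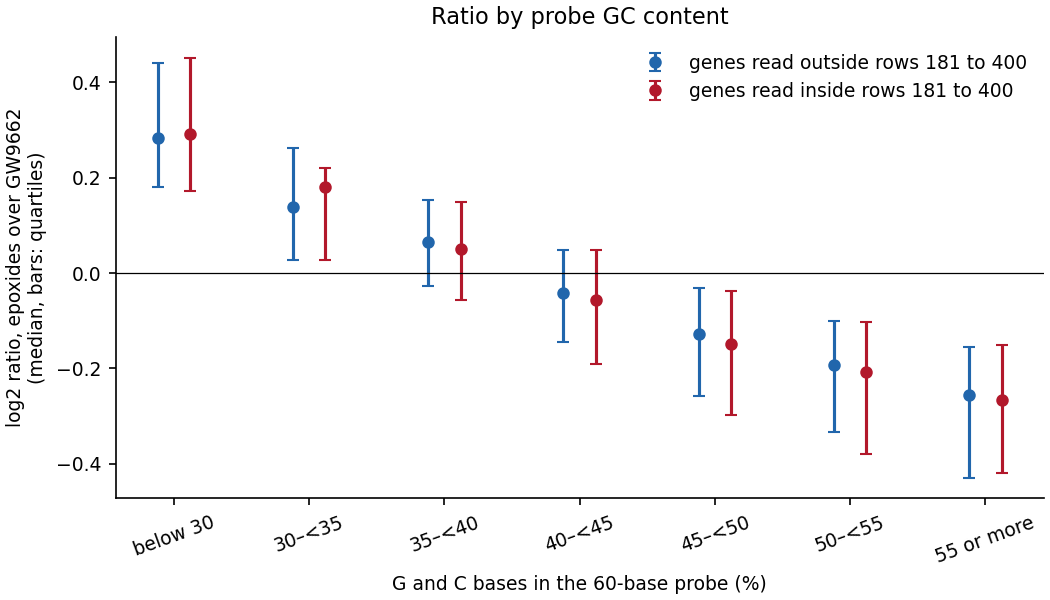
Median log2 ratio of epoxides over GW9662 (points, bars from the first to the third quartile over genes) in 7 bins of probe GC content, for genes read outside and inside the middle rows. Both series go from above 0 (0.28 and 0.29 under 30% GC) to below 0 (-0.26 and -0.27 at 55% or more).

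Removing the trend left the Cyp4a and Cpt1a differences nearly as they were. Cyp4a31 then had -1.73, Cyp4a12a -1.51, Cyp4a12b -1.41, Cyp4a10 -1.38 and Cpt1a -0.79. The Cyp4 list as a whole had a median of -0.17 with 4 of 10 positive, and its positive members were not Cyp4a genes. Immediate early genes had a median of 0.16, with 21 of 26 positive, and S phase genes 0.12, with 31 of 36 positive. Over all measured genes the median was then 0.00, with 8249 of 16049 positive. Csk went from 0.36 to 0.17, Pparg from -0.45 to -0.15, Fcer1g from -0.32 to -0.08 and Plin4 from -0.54 to -0.01. Medians close to 0 were found for mast cell identity genes (-0.01), granule proteases (0.00), fatty acid oxidation (-0.02) and PPAR gamma targets (0.02), while eicosanoid genes kept -0.09. Over the 10063 genes that could be read without the middle rows, 16 were then 2-fold higher with epoxides (0.159%) and 5 lower (0.0497%), 21 in all (0.209%).

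Outside the middle rows, 8 genes with a plain symbol were at least 2-fold lower with epoxides. Besides Cyp4a10 they included Pdss2, which makes the side chain of coenzyme Q, at -2.34 with vehicle, -2.39 with epoxides and -0.82 with GW9662, a ratio of -1.58. A second probe of Pdss2 gave -0.35. Aif1l, an actin-binding protein gene, was at -1.45, -1.62 and -0.53, a ratio of -1.09. In both, as in Cyp4a12a and Cyp4a12b, vehicle and epoxides lay together. The other 5 were Slc49a4 at -1.40, the Mas-related receptor gene Mrgpra5 at -1.25, Ldb3 at -1.10, G6bos at -1.08 and Fbxw21 at -1.01, all at -3.17 or below with epoxides. Aif1l, Ldb3, G6bos and Fbxw21 fell below 2-fold with the trend removed. Under another background correction, normexp, the same genes and also Slc49a4 and Mrgpra5 did so.

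Plain-symbol genes at least 2-fold higher outside the middle rows were Ifna2 at 1.97, Nkpd1 at 1.83, Vax2 at 1.21, Atp6v1b2 at 1.12 and Gabra2 at 1.01. Ifna2, an interferon alpha gene, was at -3.66 with vehicle, -2.04 with epoxides and -4.01 with GW9662. All 5 were below the median signal of measured genes and had 1 detected probe each. With normexp, Atp6v1b2 and Gabra2 fell below 2-fold. With the trend removed in a fit to genes outside the middle rows, Fgf6 joined the lowest, and Hif3a at 1.28 and Adprhl1 at 1.22 the highest. Another Hif3a probe, inside the middle rows, was above background with GW9662 only, at -4.01 against -6.56 with epoxides, the opposite direction.

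**Figure D4:**
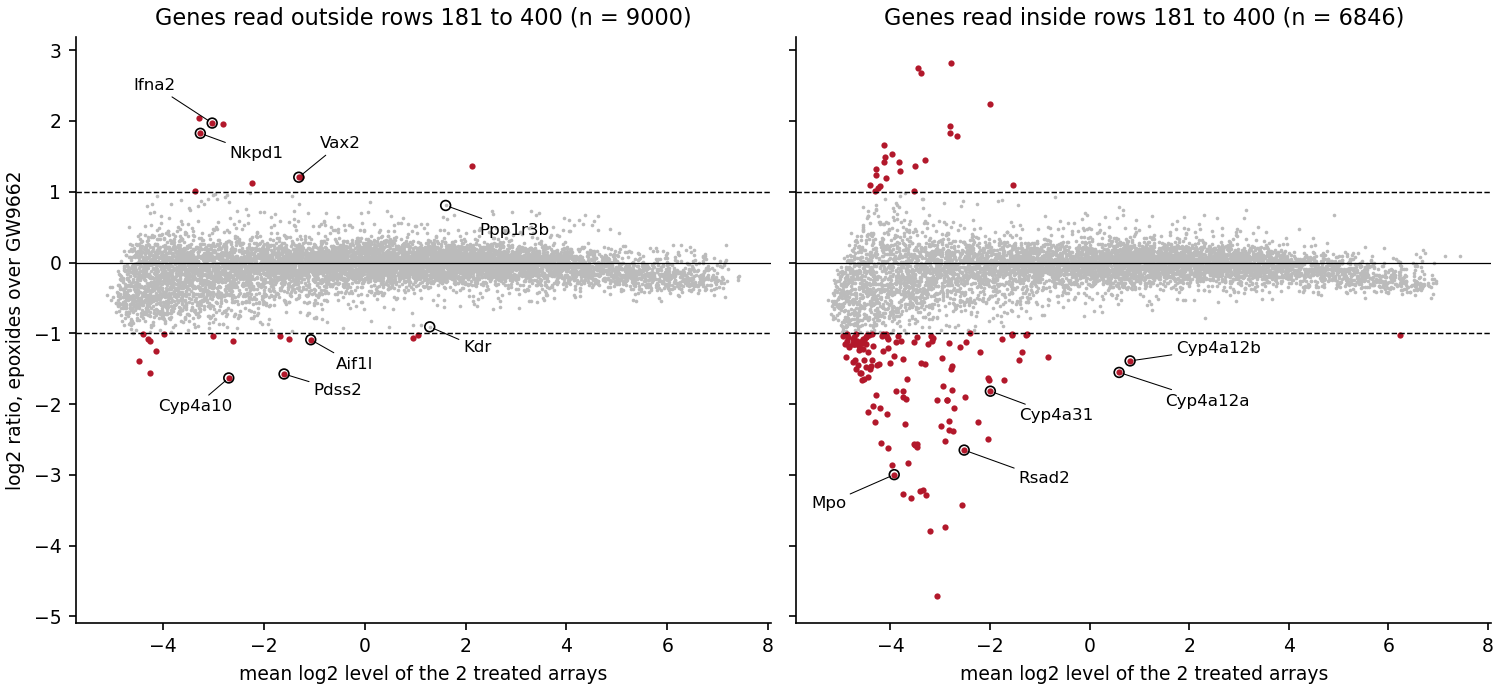
Log2 ratio of epoxides over GW9662 (y axis) against the mean level on the 2 treated arrays (x axis, log2) for genes read outside (left, n = 9000) and inside (right, n = 6846) the middle rows. Differences of 2-fold or more are in red, at or beyond the dashed lines at 1 and -1. Most red points are dim genes on the right, below -1, and Cyp4a12a and Cyp4a12b are set apart from them by their signal.

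Among the 4559 genes read outside the middle rows with signal at or above the median, 19 were at least 1.5-fold higher with epoxides (0.417%) and 17 lower (0.373%). At 2-fold there were 1 higher and 2 lower, none with a plain symbol, and the genes named next are those with one. Kdr, the main VEGF receptor, was at 2.05 with vehicle, 0.83 with epoxides and 1.74 with GW9662, a ratio of -0.91 (1.88-fold lower). A second Kdr probe, spotted 10 times, was not well above background. Among the next lowest were the steroid hydroxylase Cyp17a1 at -0.72, Prss53 at -0.65, Dvl3 at -0.63, Dlx3 and the sodium-calcium exchanger gene Slc8a3 at -0.62, Oacyl at -0.60 and Caln1 at -0.59. In Kdr and Cyp17a1 it was the epoxide array that stood apart from both others. A second probe gave -0.55 for Caln1. The Dvl3 probe held 76.7% G and C and those of Kdr and Cyp17a1 55%. Genes outside the middle rows with 55% or more had a median ratio of -0.26. The probes of the other low genes named here held 41.7% to 45%. The part of probe GC content in these ratios was not tested. Of the other VEGF genes, Vegfa had 0.10, Vegfb -0.23 and Vegfc -0.02, the last inside the middle rows. Flt1, another VEGF receptor, was above background with GW9662 only, at -2.62 against -7.90 with epoxides and -7.16 with vehicle, at least 7.69-fold higher with GW9662, and was also read inside the middle rows.

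On the higher side, Ppp1r3b, a subunit that directs a phosphatase to glycogen, was at 1.08 with vehicle, 2.01 with epoxides and 1.20 with GW9662, a ratio of 0.81 (1.75-fold higher). Among plain symbols it was followed by the sodium channel gene Scn8a at 0.73, the histone methyltransferase gene Suv39h2 at 0.68, the endocytic scaffold gene Itsn1 at 0.67, Fam219a, Nfkb1 and Skint7 at 0.66, Sema4c at 0.63, Tacc1 at 0.62 and Ccdc138 at 0.60. For Ppp1r3b, Scn8a and Suv39h2 vehicle lay close to GW9662. Other probes did not bear out the size in 4 of the 10: they gave -0.07 and -0.08 for Itsn1, 0.08 for Fam219a, -0.03 for Nfkb1 and 0.12 for Ccdc138. The Tacc1 probe held 23.3% G and C and that of Nfkb1 21.7%. Genes outside the middle rows with under 30% had a median ratio of 0.28. The remaining probes of these 10 held 35% to 55%.

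Few of the large differences could be checked on a second probe. Of the 187 genes at 2-fold or more, 12 had another detected probe, in 7 of them every other probe had the same sign, and in 2 it also reached 1.5-fold. One of the 2 was Cyp4a31. Over the 3443 genes with at least 2 detected probes, all probes were 1.5-fold or more lower in 9 and higher in 0. Chosen after their values were seen, the 9 included Cpt1a, Cyp4a31 and the calcium channel gene Cacna1h, whose 2 probes gave -0.85 and -0.65.

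Within the middle rows, 2-fold differences were found in all 11 bands of 20 rows, but unevenly. Counted over probes spotted once, each band held 2 to 31 lower probes, 165 in all of 8625, with 30 higher. The 16 other bands held 0 to 4 lower probes each, 16 in all of 11363, with 13 higher. The band medians overlapped in part, from -0.08 to -0.06 inside and from -0.07 to -0.03 outside. Over genes the median was -0.07 inside and -0.05 outside. The stretch thus differed mainly in its tails and slightly in its centre. Copies of the same probe detected on both arrays gave SDs of 0.0284 inside and 0.0346 outside, at the median.

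**Figure D5:**
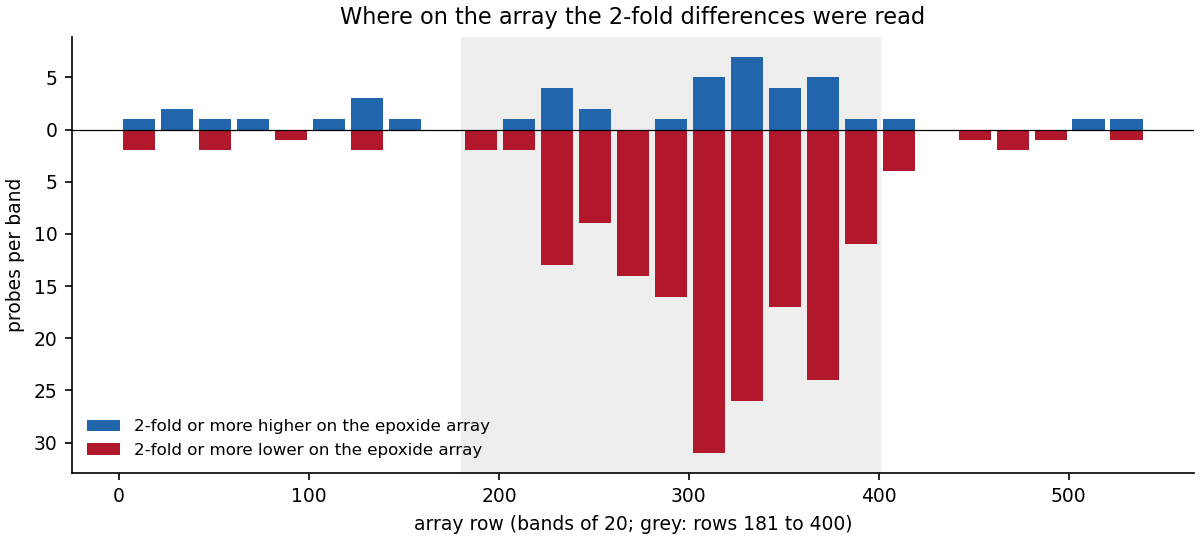
Number of single-spot probes at least 2-fold higher (blue, upward) or lower (red, downward) on the array labelled omega-3 epoxides than on that labelled GW9662, in bands of 20 array rows (x axis), with the middle rows in grey. The grey bands hold up to 31 lower probes each, the others at most 4.

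Several large ratios of known genes came from those rows alone. Mpo, myeloperoxidase, was at -5.48 with vehicle, -5.42 with epoxides and -2.42 with GW9662, 7.98-fold lower with epoxides than with GW9662, and Rsad2, an antiviral interferon target, at -4.07, -3.84 and -1.19, a ratio of -2.65. Neither had another detected probe. Of the other 17 measured interferon response genes, 0 reached 2-fold, the median of all 18 (28 listed) was -0.05, and the range without Rsad2 was bounded by Oasl2 at 0.26 and Bst2 at -0.16.

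A further 1424 genes were well above background on 1 treated array only, 902 on the epoxide array and 522 on the GW9662 array. For these a bound was formed, with the dim array set to its own level or to the level where detection began there, whichever was higher. It reached 2-fold for 107 genes with epoxides, 75 of them inside the middle rows, and for 311 genes with GW9662, 292 of them inside. Among genes with a plain symbol the largest were Calcoco2, at least 27.3-fold higher with GW9662, Olfr270 at least 19.4-fold and Slc17a2 at least 19.4-fold. With epoxides the largest among them were Rab11fip1, at least 12.2-fold higher, Vmn1r66 at least 11.9-fold and Calhm1 at least 11.8-fold. All 6 were read inside the middle rows. Another probe of Calcoco2, at -5.07 with GW9662, was not well above background on any array. The same held for another probe of Slc17a2, at -5.90 with GW9662.

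Metabolic and stress lists differed little. Respiratory chain subunits gave 12 positive of 50 and a median of -0.06, glycolysis and hypoxia genes 8 of 29 and -0.10, sterol and fatty acid synthesis 7 of 32 and -0.07, and NRF2 and glutathione genes 7 of 31 and -0.09. The stress response to unfolded protein and amino acid shortage gave 15 of 31 and -0.02, LXR and cholesterol efflux genes 5 of 13 and -0.05, sphingosine 1-phosphate genes 8 of 14 and 0.01, and VEGF ligands and receptors 1 of 4 and -0.13. With the trend removed the positive counts became 22 of 50 for respiratory chain, 18 of 29 for glycolysis and hypoxia, 13 of 32 for sterol and fatty acid synthesis, 10 of 31 for NRF2, 21 of 31 for the stress response and 8 of 13 for LXR genes. Of all measured genes, 8249 of 16049 were positive with the trend removed. None of the members of these lists measured on both treated arrays reached 2-fold.

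Markers of other cell types were checked on the same arrays. Of 18 neutrophil markers 7 were measured, all negative, with a median of -0.44 that became -0.16 with the trend removed, and -0.05 over the 4 that could also be read without the middle rows. Their summed signal, in multiples of the 75th percentile of the array, was 54.8 with vehicle, 40.1 with epoxides and 49.7 with GW9662. Most of each sum came from Csf3r alone, at log2 levels of 5.60, 5.10 and 5.42. The next brightest measured marker, Ctsg, was at 2.05, 2.11 and 2.21. The sum is therefore no measure of the neutrophil markers as a set. The mast cell identity genes summed to 1751, 1449 and 1638. S100a8, S100a9 and Ltf, abundant in neutrophils, were not measured. The 4 measured of 16 B and T cell markers were also negative, with a median of -0.43: Cd3e was at -1.40 and -0.61, Cd4 at 0.08 and 0.49, and Cd3g was not measured. Cd79a, a B cell receptor subunit, was well above background with GW9662 only, at -1.77 against -5.66 with epoxides and -6.00 with vehicle, at least 13.9-fold higher with GW9662 and read inside the middle rows. Medians and counts of positive ratios in the remaining lists were -0.17 and 3 of 10 for monocytes and macrophages, -0.05 and 3 of 8 for basophils, 0.01 and 1 of 2 for eosinophils, -0.12 and 1 of 11 for erythroid cells and megakaryocytes, -0.13 and 0 of 5 for dendritic cells, and -0.16 and 1 of 5 for stromal and endothelial cells. These counts turned with the scaling in some lists: with the trend removed 7 of 10 monocyte and macrophage markers, 3 of 5 dendritic cell markers and 3 of 5 stromal and endothelial markers were positive, and under quantile normalization 5 of 5 dendritic cell markers. With the trend removed, 8249 of all 16049 measured genes were positive. The macrophage marker Vsig4 and the endothelial cadherin Cdh5 were above background with GW9662 only, at least 2.42-fold and 2.78-fold higher there, both inside the middle rows. In RNA from a whole culture, fewer cells of a type and less RNA per cell cannot be told apart, and the part of these cells in any ratio above was not tested.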

How the data were processed

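RNA of 3 cultures was hybridised to 1-colour arrays with 60-base probes. The submitters' processing notes name Agilent Feature Extraction 11.5.1.1. The processed signal is a linear intensity from which background and a spatial trend had been removed, per the file headers; mean and background signals are intensity values too. The value table deposited by the authors holds a linear ratio of intensity to the 75th percentile of the array.

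Here, levels are log2 of the processed signal over the array's 75th percentile (control spots excluded). From 221 to 251 outlier spots per array were dropped, copies averaged, and no spot was saturated. From 52.3% to 54.6% of spots per array were well above background. RefSeq named 28330 of 39429 probes and the files the others. A gene was read by its brightest probe over the 3 arrays, and measured if the majority of copies passed the scanner's background flag on both treated arrays.

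Rows 181 to 400 are the middle rows. Genes named were the up to 10 highest and lowest outside them (2-fold, or 1.5-fold at or above the median signal), 5 each inside the rows and with the trend removed, 4 members of each of 32 lists (every member for short lists), 17 genes of prior interest, and 3 bounds each way. The trend was a quadratic in probe GC content and mean signal. The lists, the rows and the rule were chosen with earlier results of these data known. Alternatives used limma 3.58.1 in R 4.3.3. Tested on simulated data for this comparison, the steps recovered 197 of 200 changed genes among 16049 as scaled, and 200 with the trend removed. In those data the ratio of unchanged genes followed GC content with r = -0.85 as scaled, against -0.41 over all measured genes here. Recovery on the arrays themselves, in dim genes or in the middle rows, was not tested. With 1 array per group no test was run. Exons and UTRs under the probes were not analysed here. A few genes are not reported here.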

Additional observations from a re-analysis of the deposited data

How the results depend on the processing

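With 33 genes higher and 154 lower at 2-fold (17.6% of them higher) and a median log2 ratio of -0.056, the direction of the counts held in all but 2 of the 12 alternatives. Higher and lower genes numbered 16 and 70 with normexp background correction (offset 50), 60 and 93 (39.2% higher) with quantile normalization, 47 and 102 (31.5%) with cyclic loess, 573 and 1860 with no filter on dim probes (median -0.239), 1 and 5 in the genes no dimmer than the median, 11 and 16 (40.7%) without the middle rows, 59 and 84 (41.3%) with the smooth GC and signal trend removed, and 152 and 771 at 1.5-fold. The exceptions were 16 and 5 (76.2%) without the rows and with the trend removed together, and 154 and 33 (82.4%) by the authors' value table with its own column labels. The median was 0.0076 with quantile normalization, -0.0042 with loess, 0.0558 by the value table, 0.0047 with the trend removed and 0.0020 with both. Scaling on detected probes, and the mean of all detected probes of a gene, stayed within 1.5 times of the counts. The cause of these shifts was not tested, except that the value table exchanges the treated arrays by its labels.

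The value table reversed every ratio: Cyp4a31 1.82, Cyp4a10 1.63, Cyp4a12a 1.55, Cyp4a12b 1.39, Mpo 3.00, Rsad2 2.65, Pdss2 1.58, Slc49a4 1.40, Mrgpra5 1.25, Ldb3 1.104, Aif1l 1.09, G6bos 1.08, Fbxw21 1.01, Ifna2 -1.97, Nkpd1 -1.83, Vax2 -1.21, Atp6v1b2 -1.12 and Gabra2 -1.01.

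Of these 18 named genes at 2-fold, 10 stayed there with normexp, 15 with quantile normalization, 16 with loess, 17 with scaling on detected probes, 14 with the trend removed, and 8 of the 13 outside the rows with both. Averaging detected probes took Cyp4a10 and Pdss2 below 2-fold. No paired analysis was possible because each group has 1 array, and for the same reason no replicate could be left out. Dim genes set the limit: 1424 genes were above background on 1 treated array only.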
